A study of Mus musculus with 35 samples.

Results

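Genes of the Polycomb repressive complexes were followed over all samples of a comparison of mouse induced pluripotent stem (iPS) clones with embryonic stem (ES) cells and with the cells the clones were made from. The set held 10 genes, taken as every probe that carried the name Ezh2, Eed, Suz12, Jarid2, Mtf2, Phc1, Cbx7, Bmi1, Ring1 or Rnf2, and these names stood on 21 of the 41174 gene probes of a 1-colour array. Of the 21 probes, 20 were well above background on all 35 arrays, and the third Jarid2 probe was above background on none of them.

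Polycomb proteins keep genes silent through histone marks in 2 complexes. Polycomb repressive complex 2 (PRC2) methylates lysine 27 of histone H3 and needs the enzyme Ezh2 together with Eed and Suz12, while Jarid2 and Mtf2 bind to this core in alternative forms and help to bring it to its targets. Polycomb repressive complex 1 (PRC1) places ubiquitin on histone H2A through Rnf2 (Ring1B) or its relative Ring1, each paired with a Pcgf protein such as Bmi1, and its canonical form holds a Phc protein and a Cbx protein that reads the PRC2 mark. In ES cells the complexes are known for holding developmental regulators silent, and Cbx7 is known as the main Cbx protein there.

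The clones were made from 3 sources of adult Nanog-GFP-Puro reporter mice: PαS cells (CD45- Ter119- PDGFRα+ Sca-1+ marrow cells, a mesenchymal stem cell fraction), OP cells (the PDGFRα- Sca-1- fraction of the same stroma) and tail tip fibroblasts (TTF). All 30 clones had received retroviral Oct3/4, Sox2, Klf4 and a DsRed control; the 15 4F-clones had received c-Myc in addition and the 15 3F-clones had not, with 5 clones of each kind from each source (4F-PαS-iPS, 4F-OP-iPS, 4F-TTF-iPS and the matching 3F groups). They had been picked as GFP+ and DsRed- colonies under puromycin, so that all had once had an active Nanog reporter, and were kept on SNL feeder cells, whose RNA can be part of an extract. ES cells were represented by 1 array each of the lines EB-3 and RF8, and each source by 1 array of PαS, OP or TTF cells, without a further replicate. Nothing in the labels says whether clones of a group came from separate mice, so p-values measure the spread between clones of a group and between the ES arrays. Each source array is a group of its own, so tests of source cells hold no spread between the source samples.

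Levels are log2 intensities relative to the 75th percentile of the same array, and 0 is that percentile; they compare samples for one probe and never one gene with another. Where a gene had several probes, the one with the highest average in clones and ES arrays together stands for it, and the others are given where they differed. All clones were scanned in 1 session; EB-3 and the 3 source samples shared 1 slide of another session, and RF8 stood alone in the remaining one. Clones and ES cells, and clones and source cells, therefore cannot be told apart from session, whereas EB-3 and the source cells lay side by side. From 56.6 to 65.7% of gene probes were above background on the clone arrays and from 63.0 to 71.1% on the others.

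The array labelled TTF did not look like fibroblasts alone. It had 9 of 10 haematopoietic genes above background, with a summed level of 690 times the 75th percentile, against 6.53 in PαS cells, 17.8 in OP cells and 1.29 to 11.3 in the clones, and its level of Ptprc, the gene of CD45, was 4.14. Its 16 fibroblast genes were all above background and summed to 308. Neither Nanog nor Sox2 was above background in 3 clones, namely 4F-TTF-iPS #1 and, of the 4F-OP-iPS group, #1 and #3. Values without the TTF array or without these 3 clones, an omission chosen after seeing the data, are given beside the results they change. In such bulk extracts, fewer cells of a type and less RNA per cell cannot be told apart.

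To show what was read, the probes of the 2 PRC2 core genes and of Mtf2 that lie across an intron are printed, since these can only be matched whole by a spliced transcript; all are 60 bases, 5′ to 3′, in lower case throughout because no part of them was singled out. The Ezh2 probe spans chr6:47568744-47569639 on the minus strand, the Eed probe chr7:85913246-85916155 on the minus strand and the third Mtf2 probe, the one of widest span for that gene, chr5:107276490-107278175 on the plus strand of mm7, the build of the array design.
Ezh2 probe: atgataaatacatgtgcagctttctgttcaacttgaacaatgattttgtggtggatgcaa
Eed probe: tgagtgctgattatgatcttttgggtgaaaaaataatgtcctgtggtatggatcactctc
Mtf2 probe, the third: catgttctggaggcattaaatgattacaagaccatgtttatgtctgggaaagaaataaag

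Of the 10 Polycomb genes, 7 were lower in the iPS clones than in ES cells and these 7 and Rnf2 were higher in the clones than in the source cells, while Bmi1 and Ring1 ran the other way. With limma and an adjusted p under 0.05, 9 of the 10 genes differed between all clones and ES cells, where 52.4% of the 27623 probes tested did; 7 were lower in the clones (28.8% of all probes were) and 2 were higher (23.6%). All 30 clones lay outside the range of the ES arrays for 7 of the 10 genes, where 24.4% of all probes did not overlap. Between source cells and clones all 10 differed, where 61.8% of 28286 probes did, with 8 lower in the source cells (35.3%) and 2 higher (26.6%); groups without overlap made up 20.7% of all probes in that comparison. Both backgrounds are high, so a count of calls says little, and the sizes below carry the description. The median difference of the 10 genes was −1.49 between clones and ES cells, against −0.11 over all probes tested, and −1.48 between source cells and clones, against −0.13. Both comparisons use the same clones, so their values stand side by side and are not independent.

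**Figure D1:**
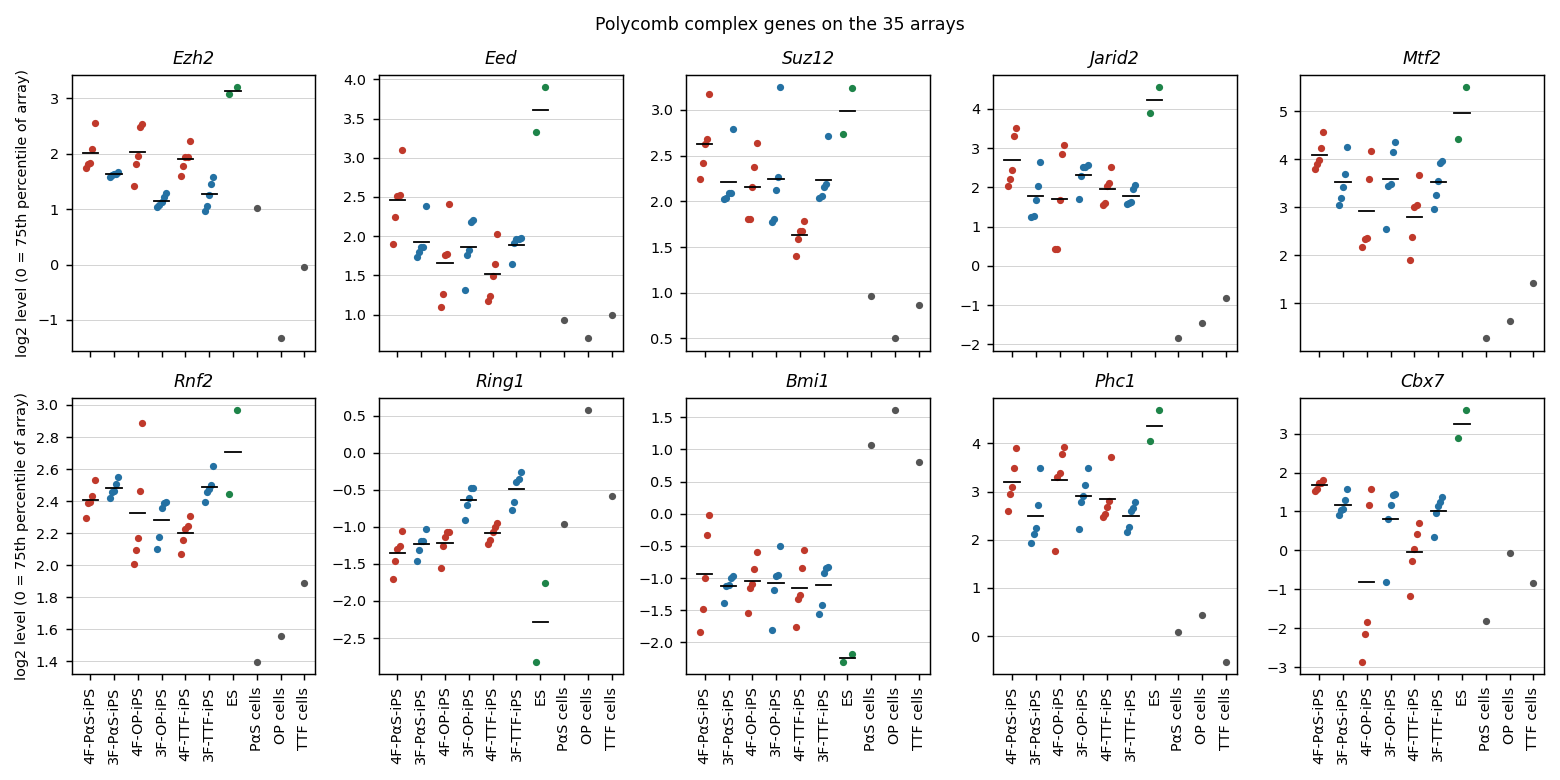
Levels of the 10 Polycomb genes (1 probe each) in every sample, as log2 relative to the 75th percentile of the array; red points are 4F-clones, blue 3F-clones, green the 2 ES arrays and grey the source cells, and black lines are means of groups with more than 1 array. All 30 clones lie below both ES arrays for Ezh2, Eed, Jarid2, Phc1 and Cbx7, and above both for Bmi1 and Ring1.

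Among the PRC2 core genes, Ezh2, the methyltransferase itself, ran from 0.97 to 2.56 (median 1.63) in the 30 clones, stood at 3.20 in EB-3 and 3.07 in RF8, and at 1.02 in PαS cells, −0.05 in TTF cells and −1.33 in OP cells. Every clone lay below both ES arrays, and 29 of 30 lay above the highest source sample. The clones were 2.78-fold lower than ES cells (log2 difference −1.47 ± 0.21 SE, limma adjusted p = 2.05e-06) and the source cells 3.45-fold lower than the clones (−1.79 ± 0.17, limma adjusted p = 1.45e-09; −1.18 and limma adjusted p = 3.5e-05 without the OP array, −2.36 and limma adjusted p = 4e-10 without the PαS array). On their common slide EB-3 exceeded PαS cells by 2.18 and OP cells by 4.54 in Ezh2. OP cells also had the lowest summed level of 12 cycling genes, 28.1, against 164 in PαS cells and 138 in TTF cells; the part of proliferation in the order of the sources was not tested.

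Eed, which binds the methyl mark and holds Ezh2 active, had levels of 1.10 to 3.09 (median 1.86) in clones, 3.90 in EB-3, 3.32 in RF8, 0.99 in TTF cells, 0.93 in PαS cells and 0.70 in OP cells. The 3 kinds of sample did not overlap, and the 3 source samples differed from each other by less than the clones did. Clones were 3.31-fold below ES cells (−1.73 ± 0.27, limma adjusted p = 7.29e-06), and source cells 2.01-fold below the clones (−1.01 ± 0.22, limma adjusted p = 0.000319).

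For Suz12, the third core subunit, 27 of 30 clones lay below both ES arrays and 1 lay above both on the first probe, which gave 1.40 to 3.25 (median 2.11) in clones, 2.74 in EB-3, 3.24 in RF8, 0.96 in PαS cells, 0.86 in TTF cells and 0.50 in OP cells. The difference from ES cells was −0.81 ± 0.27 (1.75-fold, limma adjusted p = 0.014), and the second probe, with −0.30 ± 0.34, did not pass (limma adjusted p = 0.47). Without RF8 the difference of the first probe was −0.56 (limma adjusted p = 0.231), and with quantile normalization −0.68 (limma adjusted p = 0.0538). All clones exceeded all source samples on both probes, and the source cells were 2.65-fold lower (−1.41 ± 0.22, limma adjusted p = 5.51e-06).

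Of the PRC2 accessory genes, Jarid2, a DNA-binding partner that lost its own demethylase activity in evolution, covered 0.43 to 3.51 (median 2.04) in clones, 4.56 in EB-3, 3.89 in RF8, −0.81 in TTF cells, −1.47 in OP cells and −1.84 in PαS cells. On this probe no clone reached an ES array or came down to a source sample. It was 4.55-fold lower in clones than in ES cells (−2.18 ± 0.47, limma adjusted p = 0.000381) and 10.6-fold lower in source cells than in clones (−3.41 ± 0.39, limma adjusted p = 3.13e-08), the largest gap of the 10 genes in that comparison. The second Jarid2 probe gave −1.54 ± 0.43 (limma adjusted p = 0.0039) against ES cells, with 28 of 30 clones below both arrays and 4F-PαS-iPS #2 (0.95) and #4 (1.27) between RF8 (0.93) and EB-3 (1.56).

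Mtf2, the Polycomb-like protein PCL2 that reads methylated histones and binds DNA rich in CG, had 4 usable probes. The brightest gave 1.90 to 4.56 (median 3.52) in clones, 5.51 in EB-3, 4.43 in RF8, 1.41 in TTF cells, 0.62 in OP cells and 0.27 in PαS cells, so that 29 of 30 clones lay below both ES arrays. Its difference from ES cells was −1.55 ± 0.44 (2.94-fold, limma adjusted p = 0.0046), and the other 3 probes gave −2.10 to −2.23. The sign rested on both lines but the call on EB-3: against RF8 alone it was −1.01 (limma adjusted p = 0.199). Source cells were 6.26-fold lower than clones (−2.65 ± 0.37, limma adjusted p = 6.94e-07).

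**Figure D2:**
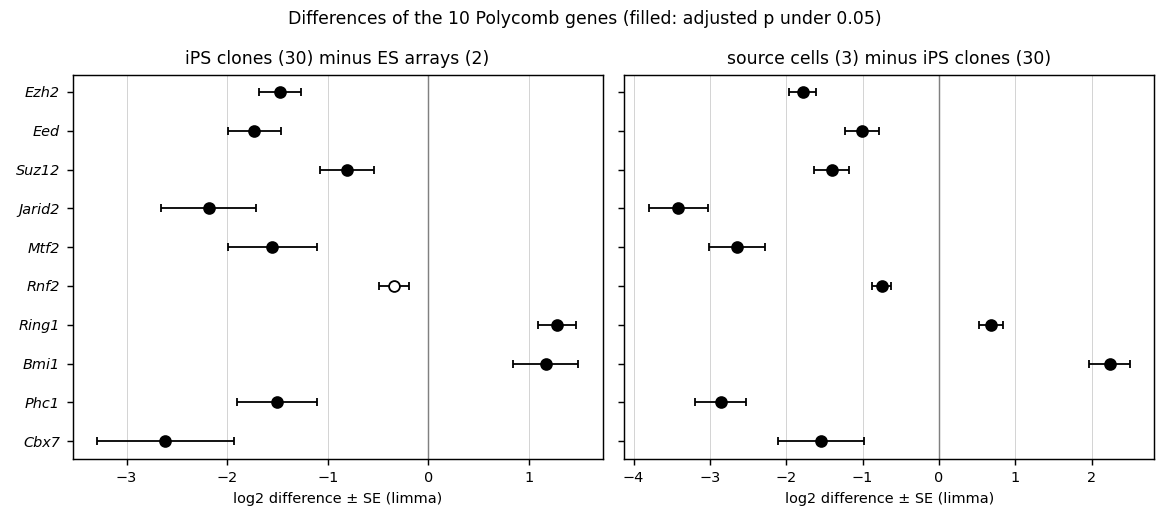
Log2 differences of the 10 Polycomb genes with their SE from limma, on the left iPS clones minus ES arrays and on the right source cells minus iPS clones; filled circles passed an adjusted p of 0.05. In the left panel 7 genes lie below 0 and passed, Bmi1 and Ring1 lie above 0, and Rnf2, at −0.34, is the open circle.

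In PRC1, the catalytic subunit Rnf2 (Ring1B) was the most even of the 10 genes over the clones on its brighter probe, with levels of 2.01 to 2.88 (median 2.39, SD 0.19, n = 30). EB-3 stood at 2.97, RF8 at 2.44, TTF cells at 1.89, OP cells at 1.56 and PαS cells at 1.40. The clones overlapped RF8, and the difference from ES cells, −0.34 ± 0.15, did not pass (limma adjusted p = 0.0578); against EB-3 alone it was −0.60 (limma adjusted p = 0.0139) and against RF8 alone −0.08 (limma adjusted p = 0.779). The source cells lay 1.68-fold below the clones (−0.75 ± 0.12, limma adjusted p = 1.01e-05) without overlap. The second Rnf2 probe varied more, from −0.74 to 1.02 in clones (SD 0.46, n = 30), with 0.47 in EB-3 and 0.97 in RF8, and its r with the first was 0.59. On it the difference from ES cells was −0.47 ± 0.30 (limma adjusted p = 0.186) and that of source cells from clones −1.60 ± 0.25 (limma adjusted p = 3.43e-06).

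Ring1, the second E3 ligase of the family, gave −1.70 to −0.26 (median −1.07) in clones, −1.75 in EB-3 and −2.82 in RF8, and all 30 clones exceeded both ES arrays, 2.43-fold on average (1.28 ± 0.19, limma adjusted p = 3.03e-06). Against EB-3 alone the difference was 0.75 (limma adjusted p = 0.00594) and against RF8 alone 1.81 (limma adjusted p = 4.97e-07), while its second probe gave 0.89 with 29 of 30 above both. The source samples stood at 0.57 (OP cells), −0.58 (TTF cells) and −0.96 (PαS cells), the last 2 within the range of the clones. The source cells were 1.60-fold above the clones (0.68 ± 0.15, limma adjusted p = 0.000443), and without the OP array the difference was 0.23 (limma adjusted p = 0.298).

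Bmi1 (Pcgf4), which pairs with either ligase and is known in adult stem cells for repressing the Cdkn2a locus, had its highest levels in the source cells: 1.61 in OP, 1.07 in PαS and 0.80 in TTF cells, against −1.84 to −0.02 (median −1.04) in clones, −2.18 in EB-3 and −2.30 in RF8. The 3 kinds of sample did not overlap on this probe. Source cells were 4.71-fold above the clones (2.23 ± 0.27, limma adjusted p = 8.24e-08) and the clones 2.24-fold above ES cells (1.17 ± 0.33, limma adjusted p = 0.00414; 1.11 and limma adjusted p = 0.0531 without RF8). On the dimmer second probe, where EB-3 stood at −6.01, RF8 at −3.89 and 8 clones lay above both, the difference from ES cells was 0.70 ± 0.37 and did not pass (limma adjusted p = 0.118). Source cells also lay nearer the clones on it, at −2.96 (OP), −3.01 (PαS) and −3.62 (TTF) against clone group means of −4.12 to −4.53. TTF cells were within the range of the clones, which reached −3.38 in 4F-TTF-iPS.

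Phc1, a subunit through which PRC1 complexes join to one another, spanned 1.76 to 3.92 (median 2.78) in clones, 4.68 in EB-3, 4.05 in RF8, 0.44 in OP cells, 0.09 in PαS cells and −0.53 in TTF cells, with no overlap on this probe. It was 2.83-fold lower in clones than in ES cells (−1.50 ± 0.40, limma adjusted p = 0.0027). Against RF8 alone the difference was −1.19 (limma adjusted p = 0.099). Its other probes gave −2.16 and −1.11. On the last of these clones overlapped the ES arrays, reaching 1.27 in 4F-OP-iPS and 1.12 in 4F-PαS-iPS against 0.43 and 1.95 in ES cells. Phc1 was 7.26-fold lower in source cells than in clones (−2.86 ± 0.33, limma adjusted p = 3.78e-08).

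Cbx7, the chromodomain subunit, varied most among clones (SD 1.23, n = 30), from −2.86 to 1.81 (median 1.10), against 3.60 in EB-3 and 2.89 in RF8. The mean difference from ES cells was −2.61 ± 0.68 (6.12-fold, limma adjusted p = 0.00227), the largest of the 10; against RF8 alone it was −2.26 (limma adjusted p = 0.067). The source samples stood at −0.08 (OP cells), −0.84 (TTF cells) and −1.82 (PαS cells). Of the clones, 3 lay below all of them. The source cells were 2.92-fold lower than the clones (−1.55 ± 0.57, limma adjusted p = 0.0198), and of the 10 calls in that comparison this one was lost under the most alternatives: the difference was −1.58 (limma adjusted p = 0.0503) without the TTF array, −1.09 (limma adjusted p = 0.175) without PαS cells, −0.73 (limma adjusted p = 0.305) with the clone number as a block and −1.66 (limma adjusted p = 0.0742) with slide as a random block. Without the 3 clones that lacked Nanog and Sox2 signal it was −1.78 (limma adjusted p = 0.0012), and clones against ES cells gave −2.38 (limma adjusted p = 0.0006).

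Without those 3 clones the same 9 of the 10 genes were called against ES cells, with −1.44 for Mtf2 and −0.76 for Suz12, and all 10 between source cells and clones. Without the array labelled TTF, the 9 genes other than Cbx7 kept their sign and passed in the comparison of source cells with clones, with −3.69 for Jarid2, −2.97 for Mtf2, −2.60 for Phc1, −1.82 for Ezh2, 2.41 for Bmi1 and 0.81 for Ring1. On the single slide that held EB-3 and the source cells, EB-3 exceeded every source sample in 8 genes, by 1.08 (Rnf2 against TTF cells) to 6.40 (Jarid2 against PαS cells). Bmi1 was lower in EB-3 by 2.98 to 3.79 and Ring1 by 0.79 to 2.32. With 1 array per cell type these last values have no test.

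Other marker lists were set beside the difference between clones and ES cells, where 28.8% of all probes were lower in clones and 23.6% higher. Of 12 cycling genes 8 were lower in clones, and their summed level was 121 to 285 in clones against 337 in RF8 and 486 in EB-3. Of 16 fibroblast genes 12 were higher, with sums of 39.3 to 305 in clones, 48.8 in RF8 and 10.4 in EB-3, and of 8 pluripotency genes 2 were lower, with sums of 10.9 to 580 in clones and 331 to 634 in ES cells. Of 10 haematopoietic genes 4 were tested and 3 of them were higher, with sums of 1.29 to 11.3 in clones and 0.593 to 1.02 in ES cells. Between source cells and clones, 35.3% of all probes were lower in source cells and 26.6% higher. Of the 12 cycling genes 8 were lower and 1 was higher (median −1.57). All 8 pluripotency genes were lower (−9.02). Only 2 of them in PαS and OP cells and 3 in TTF cells were above background, so this median rests in part on values near background. Of 16 fibroblast genes 15 were higher (3.23), and of 4 haematopoietic genes tested 1 was higher (0.53). Ptprc, above background in PαS and TTF cells but not in OP cells or any clone or ES array, was not tested. The part of these lists in the values of the Polycomb genes was not tested.

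Clones made with and without c-Myc differed in 2 of the 10 genes, where 21.2% of all probes tested differed. Ezh2 was lower in 3F-clones (9.89% of all probes were lower), and Ring1 was higher (11.3% were higher). Ezh2 measured 1.74, 2.56, 1.82, 2.08 and 1.83 in 4F-PαS-iPS #1 to #5 and 1.67, 1.58, 1.64, 1.62 and 1.63 in 3F-PαS-iPS. Among OP-derived clones it measured 1.81, 2.48, 1.41, 2.54 and 1.96 with c-Myc and 1.04, 1.07, 1.14, 1.29 and 1.22 without. Among TTF-derived clones the values were 1.95, 1.60, 2.23, 1.94 and 1.77 with and 1.58, 1.26, 1.46, 1.06 and 0.97 without. Within each source the 4F- and 3F-clones did not overlap, as was so for 2.43% of all probes among PαS-, 5.0% among OP- and 18.5% among TTF-derived clones. The 3F-clones were 1.55-fold lower (−0.63 ± 0.10, limma adjusted p = 0.0002), by −0.89 ± 0.18 among OP-derived (limma adjusted p = 0.00435), −0.63 ± 0.18 among TTF-derived (limma adjusted p = 0.0259) and −0.38 ± 0.18 among PαS-derived clones (limma adjusted p = 0.277, not called).

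Ring1 measured −1.25, −1.07, −1.07, −1.55 and −1.14 in 4F-OP-iPS #1 to #5 and −0.48, −0.62, −0.48, −0.92 and −0.71 in 3F-OP-iPS. In 4F-TTF-iPS it measured −1.07, −1.18, −1.24, −1.0 and −0.95, and in 3F-TTF-iPS −0.77, −0.26, −0.40, −0.35 and −0.66. For these sources every 3F-clone lay above every 4F-clone, whereas the 4F-PαS-iPS (−1.70 to −1.05) and 3F-PαS-iPS (−1.45 to −1.03) clones overlapped. The 3F-clones were 1.35-fold higher (0.43 ± 0.09, limma adjusted p = 0.00196), with 0.58 ± 0.16 for OP (limma adjusted p = 0.0271), 0.60 ± 0.16 for TTF (limma adjusted p = 0.0189) and 0.12 ± 0.16 for PαS (limma adjusted p = 0.749, not called). The second Ring1 probe gave 0.44 ± 0.10 over all sources (limma adjusted p = 0.00226), but among OP-derived clones its groups met, with −1.04 in the highest 4F-clone and −1.06 in the lowest 3F-clone (0.41, limma adjusted p = 0.123).

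**Figure D3:**
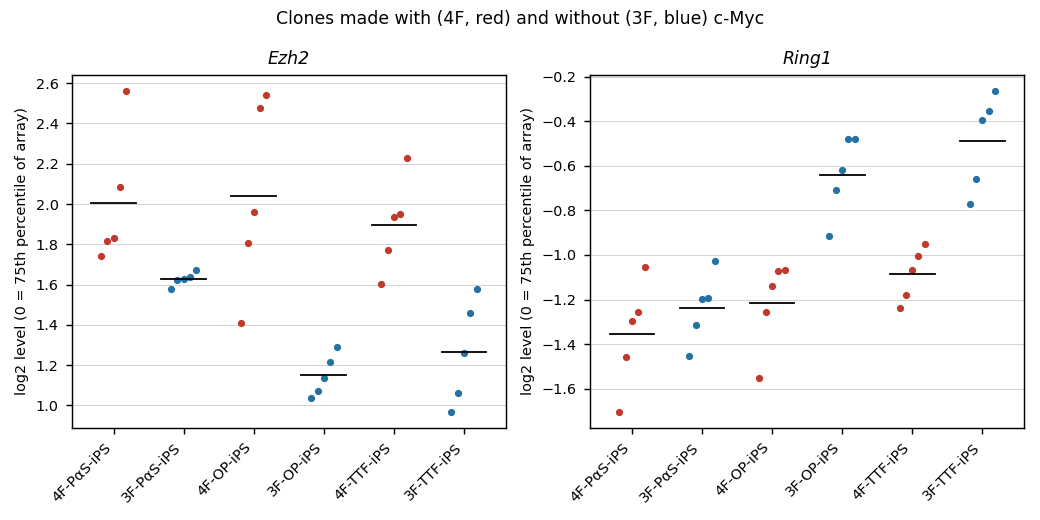
Levels of Ezh2 and Ring1 in the 6 clone groups (5 points each, black line the mean), as log2 relative to the 75th percentile of the array. Ezh2 is lower in the blue 3F-clones than in the red 4F-clones of each source, and on the probe shown Ring1 is higher in 3F-OP-iPS and 3F-TTF-iPS.

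By source, 2 of 10 genes were called between 3F- and 4F-clones for OP (8.1% of all probes, 4.83% higher and 3.27% lower in 3F-clones). For TTF 2 were called (10.1%, 5.75% higher and 4.36% lower), and for PαS 0 (0.0217%, 0.00724% higher and 0.0145% lower). Among PαS-derived clones 3 genes had an unadjusted limma p under 0.05, as did 4773 of 27623 probes. The difference between 3F- and 4F-clones was not shown to depend on the source for any of the 10 genes by limma's interaction terms. Of all probes 0.691% passed for PαS against OP, 0.615% for PαS against TTF and 0.0% for OP against TTF. At an unadjusted limma p under 0.05 the genes numbered 4, 4 and 0, and the probes 5221, 5345 and 1028 of 27623. The largest of these interaction values was that of Cbx7, −2.12 ± 0.84 between PαS and OP (limma adjusted p = 0.169).

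Slides did not hold 3F- and 4F-clones of the same source together. With slide as a random block, Ezh2 kept its call (−0.61, limma adjusted p = 0.0301) and Ring1 lost it (0.41, limma adjusted p = 0.063). By source no call was kept under that block, with −0.90 for Ezh2 (limma adjusted p = 0.0675) and 0.58 for Ring1 (limma adjusted p = 0.126) among OP-derived clones, and −0.56 (limma adjusted p = 0.442) and 0.56 (limma adjusted p = 0.342) among TTF-derived ones. Of the 12 cycling genes 8 were also lower in 3F-clones (9.89% of all probes were), among them Tyms (−0.78), Rrm2 (−0.72), Mcm2 (−0.66) and Mcm6 (−0.63). The summed level of the 12 was 121 to 201 in 3F-clones against 161 to 285 in 4F-clones. Of 16 fibroblast genes 3 were higher in 3F-clones (median 0.81), as were 1 of 8 pluripotency genes (1.39) and 1 of 4 haematopoietic genes (0.85), where 11.3% of all probes were. The part of these lists was not tested. Without the 3 clones that lacked Nanog and Sox2 signal, Ezh2 gave −0.73 and Ring1 0.44, and both passed. Among OP-derived clones that omission left Ezh2 called (−1.18, limma adjusted p = 0.0027) and Ring1 not (0.61, limma adjusted p = 0.123), and among TTF-derived clones both stayed called (−0.62 and 0.60). Ring1 also lost its call among OP-derived clones with quantile normalization (0.50, limma adjusted p = 0.0968), and with normexp neither gene was called for TTF (−0.62 and 0.50) and Ring1 was not for OP (0.49).

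Between sources few of the genes differed. Between PαS-iPS and OP-iPS clones limma called 0 of 10 (3.69% of all probes, 1.82% higher and 1.87% lower in PαS-iPS). At an unadjusted limma p under 0.05 there were 3, where 5944 of 27623 probes were: Cbx7 (1.43 ± 0.42, limma adjusted p = 0.0508), Ring1 (−0.37 ± 0.11, limma adjusted p = 0.0639) and Eed (0.43 ± 0.16, limma adjusted p = 0.126). Ring1 was called with slide as a random block (−0.46, limma adjusted p = 0.0277) and as a fixed block (−0.54, limma adjusted p = 0.0316), and Cbx7 with the random block (1.59, limma adjusted p = 0.0427). Between PαS-iPS and TTF-iPS clones it called 1 (1.3% of all probes, 0.597% higher and 0.702% lower), Ring1, lower in PαS-iPS (−0.51 ± 0.11, limma adjusted p = 0.0302); its second probe gave −0.42 (limma adjusted p = 0.0659), and normexp background correction gave −0.34 (limma adjusted p = 0.206). Quantile normalization gave −0.51 (limma adjusted p = 0.0566), slide as a random block −0.52 (limma adjusted p = 0.151), and the fit without the 3 clones that lacked Nanog and Sox2 signal gave −0.51 (limma adjusted p = 0.0558). Between OP-iPS and TTF-iPS clones limma called 0 (0.029% of all probes, 0.00724% higher and 0.0217% lower), and 0 at an unadjusted p under 0.05, where 2806 of 27623 probes were.

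Cbx7 varied widely among OP-derived clones. Its levels were −2.86, −1.85, −2.16, 1.59 and 1.16 in 4F-OP-iPS #1 to #5. Without c-Myc the OP-derived clones gave −0.83, 0.81, 1.17, 1.44 and 1.42. The 4F-TTF-iPS clones gave −1.18, −0.27, 0.71, 0.04 and 0.43. The 10 PαS-derived clones stayed between 0.90 and 1.81, and the 5 3F-TTF-iPS clones between 0.35 and 1.38. The 5 lowest Cbx7 values thus belonged to 3 4F-OP-iPS clones, 4F-TTF-iPS #1 and 3F-OP-iPS #1. In those clones Nanog stood at −6.13, −3.30 and −8.24 (4F-OP-iPS #1 to #3), −6.06 (4F-TTF-iPS #1) and 0.76 (3F-OP-iPS #1), the values of −6.06 and lower being not above background, against a median of 1.62 over all clones. Cbx7 between PαS-iPS and OP-iPS passed when 4F-OP-iPS #4 was left out (1.74, limma adjusted p = 0.00592) or either ES array was (1.43, limma adjusted p = 0.0455), but it was 0.87 (limma adjusted p = 0.299) without the 3 clones that lacked Nanog and Sox2 signal.

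Over the 30 clones, levels of several of the genes varied together. Cbx7 and Mtf2 had Pearson's r = 0.87 and Spearman's rho = 0.90, Mtf2 and Eed r = 0.86, Mtf2 and Suz12 r = 0.79, and Cbx7 and Eed r = 0.76. Cbx7 and Mtf2 were also correlated within 4F-clones (r = 0.90) and 3F-clones (r = 0.82), and over the 27 clones with Nanog and Sox2 signal (r = 0.86). Phc1 and Jarid2 had r = 0.73, and 0.92 over those 27 clones. Cbx7 and Jarid2 had r = 0.63 pooled, 0.85 within 4F-clones and −0.02 within 3F-clones. Jarid2 and Eed had 0.66 pooled, 0.73 within 4F-clones and 0.35 within 3F-clones. Ezh2 had pooled r of at most 0.27 with the other PRC2 genes, though 0.51 with Eed within 4F-clones (0.15 within 3F-clones), and with Rnf2 it had 0.18 pooled, 0.67 within 4F- and 0.47 within 3F-clones. Its pooled r farthest from 0 was with Ring1, at r = −0.77 and rho = −0.75 over all clones, −0.75 without the 2 clones farthest from the median of Ring1, −0.56 within 4F-clones and −0.75 within 3F-clones. These are descriptions over clones that share slides, array scaling and group differences.

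**Figure D4:**
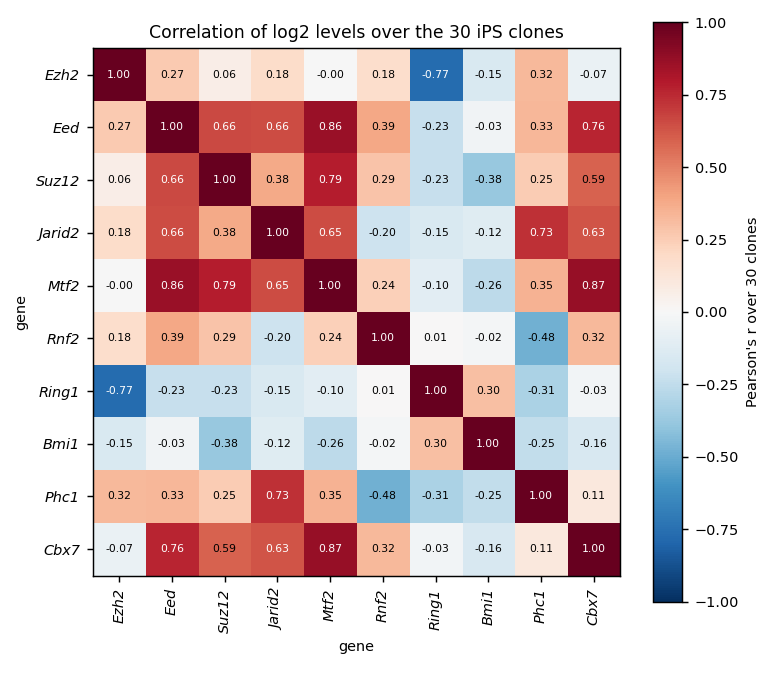
Pearson's r of the log2 levels of each pair of the 10 genes over the 30 iPS clones, from −1 (blue) to 1 (red). Over all 30 clones Eed, Suz12, Jarid2, Mtf2 and Cbx7 are positively related to one another, and Ezh2 and Ring1 have r = −0.77. Within 3F-clones Cbx7 and Jarid2 have r = −0.02.

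The genes most like each Polycomb gene over the clones, among 20292 probes above background on all 30, were given by Pearson's r without a test. For Ezh2 these were Gmnn (0.91), which encodes the replication licensing inhibitor geminin, LOC625989 and Ppp1cc. For Eed they were Rrn3 (0.96), an RNA polymerase I initiation factor, Sirt1 (0.93), a deacetylase, and Ash2l (0.92), a subunit of H3K4 methyltransferases, and for Mtf2 LOC435366 (0.96), Nfatc2ip (0.95) and the mismatch repair gene Msh6 (0.94). Cbx7 was most like Dnmt3l (0.97), a cofactor of de novo DNA methylation in germ and stem cells, 2410116G06Rik and BC054101, and Dnmt3l remained at 0.93 without the 3 clones that lacked Nanog and Sox2 signal. Jarid2 was closest to Mkrn1 (0.90), Jarid1b (0.89) and Tgif (0.88), Phc1 to 2810410M20Rik (0.89), Ints4 and the retinoic acid receptor gene Rarg (0.88), and Suz12 to Mettl2 (0.88), Mrps24 and Ttc1. Ring1 had the weakest leading partner, Fosl2 (0.85), then Nol12 and Ppp1r10, while Bmi1 led with Zfp324 (0.87), BC043098 and Zfp12, and Rnf2 with Ints6 (0.88), 2700060E02Rik and Hbld2.

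Among 7 further PRC2 genes, 19 further PRC1 genes and 2 H3K27 demethylases, Cbx genes differed between clones and ES cells in both directions. Cbx8 had −2.23 to −0.15 in clones, −5.89 in EB-3 and −3.08 in RF8, a difference of 3.26 ± 0.46 (limma adjusted p = 2.22e-06). Between source cells and clones it did not pass on this probe, and a dimmer Cbx8 probe did (0.72, limma adjusted p = 0.0395). Cbx2 was the reverse, lower in clones than in ES cells by −1.34 ± 0.29 (limma adjusted p = 0.000401), so that Cbx7 and Cbx2 were lower and Cbx8 was higher in clones than in ES cells, while Cbx6 did not pass.

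**Figure D5:**
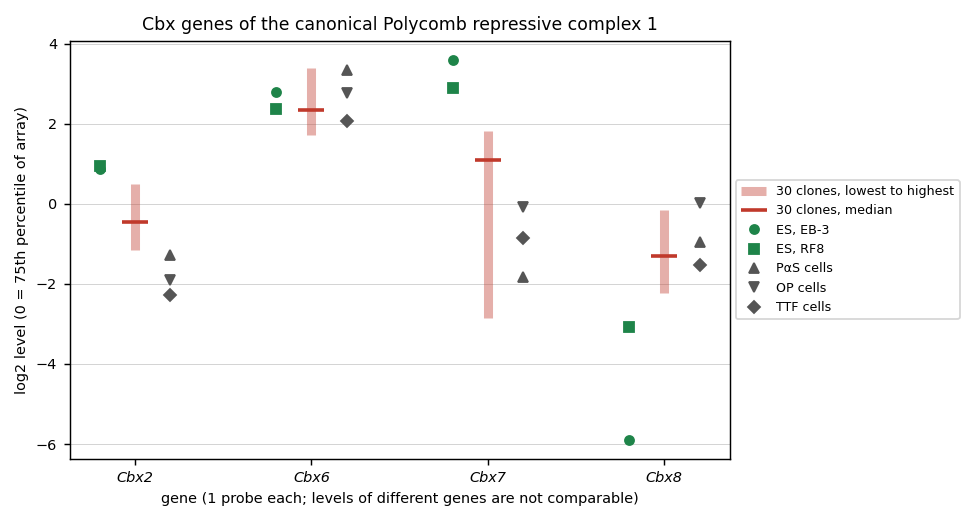
Levels of 4 Cbx genes (1 probe each) as log2 relative to the 75th percentile of the array; red bars run from the lowest to the highest of 30 clones with a dash at the median, green symbols are the 2 ES lines and grey symbols the 3 source samples. Both ES lines lie above all clones for Cbx2 and Cbx7 and below all clones for Cbx8.

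The other PRC1 and PRC2 genes had median differences of 0.05 and −0.01 between clones and ES cells, against −0.11 over all probes. Of the other PRC1 genes, 6 of 18 tested were higher in clones than in ES cells, where 23.6% of all probes were (among them Cbx8, Pcgf5 at 1.95, Yaf2 at 1.41, Phc2 at 0.75 and Scmh1 at 0.75) and 5 were lower, where 28.8% were (with Cbx2, Pcgf6 at −1.32, Kdm2b at −1.06, L3mbtl2 at −1.0 and Rybp at −0.82). Pcgf6, Kdm2b, L3mbtl2 and Rybp are known from non-canonical PRC1 forms, and Phc2 and Scmh1 from canonical PRC1. Yaf2 differed between the ES lines themselves, with 0.15 in EB-3 and 3.06 in RF8. Of the 7 other PRC2 genes Phf1 (1.33) and Ezh1 (0.78), relatives of Mtf2 and Ezh2, were higher and Rbbp4 (−0.85) was lower in clones, and of the demethylases Kdm6a (−0.81) was lower. Phc3 was above background in no clone or ES array and was not tested.

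Between source cells and clones the steepest Polycomb gene outside the set was E130012A19Rik, the PRC2 cofactor now named Epop, with 3.36 to 6.13 in clones, 6.34 in EB-3, 4.40 in RF8 and −0.66 to −0.27 in the source cells (−4.96 ± 0.36, limma adjusted p = 6.74e-12). Of the 18 PRC1 genes tested, 10 were lower in source cells, where 35.3% of all probes were, among them Pcgf5 (−2.04), Rybp (−1.67), Pcgf6 (−1.62) and Scml2 (−1.49), and 3 were higher, where 26.6% were, Scmh1 (0.87), Phc2 (0.45) and Pcgf1 (0.39). Also lower were Pcgf2 (−1.48), Cbx2 (−1.38), Kdm2b (−1.36), L3mbtl2 (−1.25), Bcor (−1.09) and Bcorl1 (−0.79), with Aebp2 (−1.14) of PRC2 and the demethylase Kdm6b (−2.35), whereas Phf1 was higher (1.05). Within the clones the other Polycomb genes called were Phf1, higher in 3F-clones (0.46, limma adjusted p = 0.00483), Rybp, higher in 3F-OP-iPS than in 4F-OP-iPS (0.71, limma adjusted p = 0.0271), Kdm2b, higher in PαS-iPS than in OP-iPS (0.59, limma adjusted p = 0.0285), and Rbbp4, higher in PαS-iPS than in TTF-iPS (0.41, limma adjusted p = 0.0308). Without the 3 clones that lacked Nanog and Sox2 signal, Phf1 (0.40) and Rbbp4 (0.42) passed, whereas Rybp (0.34, limma adjusted p = 0.385), Kdm2b (0.46, limma adjusted p = 0.208) and, between source cells and clones, Scml2 (−1.46, limma adjusted p = 0.0529) did not.

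A list of 19 genes known as Polycomb targets in ES cells, 17 of them tested, had 8 higher (23.6% of all probes were) and 2 lower (28.8%) in clones than in ES cells, with a median difference of 1.85 against −0.11 over all probes. The largest were Sox17 (6.73), Gata6 (5.95), Foxa2 (5.76) and Gata4 (4.41), transcription factors of endoderm, each above background on all 30 clones and both ES arrays, and the lower ones were the neural genes Neurod1 (−4.09) and Pax6 (−3.23). Gata6, for example, stood at 1.20 to 5.16 in clones, −2.77 in EB-3 and −2.74 in RF8. Between source cells and clones 14 of the 17 targets were lower in source cells (35.3% of all probes were) and 1 was higher (26.6%), with a median of −5.11. Between 3F- and 4F-clones 2 of the 17 targets were higher without c-Myc, Hand1 (2.45) and Cdx2 (1.93), where 11.3% of all probes were, and between PαS-iPS and OP-iPS clones 1 differed (3.69% of all probes did), the Bmi1 target Cdkn2a (−2.10 ± 0.39, limma adjusted p = 0.00645), while 1, Olig2, differed between PαS-iPS and TTF-iPS clones (1.3% of all probes did) and was lower in PαS-iPS (−2.03, limma adjusted p = 0.041). Cdkn2a was also higher in clones than in ES cells (2.80 ± 0.64, limma adjusted p = 0.000657), together with its neighbour Cdkn2b (2.82). Without the 3 clones that lacked Nanog and Sox2 signal, Cdx2 passed (1.49, limma adjusted p = 0.0106), while Hand1 (1.25, limma adjusted p = 0.183), Cdkn2a between PαS-iPS and OP-iPS (−1.60, limma adjusted p = 0.066) and Olig2 (−2.07, limma adjusted p = 0.0609) did not. Whether any target was bound by Polycomb in these samples was not measured.

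The promoters of Ezh2 and Cbx7 are shown because their genes gave the smallest adjusted p between 3F- and 4F-clones and the widest spread among clones, respectively. RefSeq promoters were found for all 10 genes, 12 in all, and the 280 bases printed, 250 before and 30 after the start, are from GRCm38.p6, minus strand for both, Ezh2 at chr6:47595001-47595280 and Cbx7 at chr15:79932617-79932896. Capitals mark the letters CCAAT (the CCAAT box) and TTTGGCGC (an E2F site), searched on both strands.
Ezh2 promoter: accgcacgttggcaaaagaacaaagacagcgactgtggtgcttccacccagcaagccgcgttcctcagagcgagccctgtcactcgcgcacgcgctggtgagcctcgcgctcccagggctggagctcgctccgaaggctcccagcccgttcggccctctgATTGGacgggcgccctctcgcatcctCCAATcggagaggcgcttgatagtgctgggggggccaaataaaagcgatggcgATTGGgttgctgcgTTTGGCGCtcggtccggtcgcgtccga
Cbx7 promoter: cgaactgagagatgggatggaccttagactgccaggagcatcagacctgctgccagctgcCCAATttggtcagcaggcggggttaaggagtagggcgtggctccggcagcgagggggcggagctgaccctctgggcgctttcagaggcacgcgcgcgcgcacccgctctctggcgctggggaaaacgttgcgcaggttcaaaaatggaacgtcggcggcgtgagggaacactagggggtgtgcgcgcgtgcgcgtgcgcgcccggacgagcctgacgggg

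The Ezh2 promoter held 3 CCAAT boxes, 1 of them on the plus strand of the gene, and TTTGGCGC beginning 3 bases after the start. Of the 12 promoters 7 held CCAAT (Cbx7, Eed, Ezh2, both of Jarid2, Mtf2 and Suz12), against 36.1% of 32851 promoters of the same length, and 1 held TTTGGCGC, against 0.469%. The related E2F letters TTTCGCGC (0.304% of promoters) and the octamer ATGCAAAT (1.69%) were in none of the 12. Ezh2 and Cbx7 each held 30 CG dinucleotides in this window, against a median of 6 over all promoters; the 12 ran from 2 in one of the Mtf2 promoters and 9 in that of Phc1 to 41 in that of Suz12. A match of letters is a description of the window and not a bound site.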

How the data were processed

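RNA was hybridised, labelled with Cy3, to 1-colour Agilent mouse arrays, 35 in all. The authors deposited scanner output of Agilent Feature Extraction (9.5.3.1, 10.5.1.1 or 10.7.3.1, per the file headers) as background-subtracted intensity without scaling between arrays, and a table of log2 values centred to a median of 0 for each probe. Control spots and outlier spots (54 to 152 per array) were left out, intensities were put on a log2 scale and the 75th percentile of each array was subtracted. Centred likewise, these values had r of at least 0.99997 with the authors' log2 values on each array, over 18968 probes above background everywhere. Probes were tested, where all arrays of some group had them above background, in limma 3.58.1 (R 4.3.3) with 7 groups (27623 probes), or 10 groups when source cells entered, with Benjamini-Hochberg adjustment over all probes. For the source cells the test pools the spread of the clones, and 3 single arrays were averaged. The number of arrays limits the precision. Numbers of clones did not pair the samples. The fit was tested on simulated data. No column of values was left without a sample (0).

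Members, lists and tests were chosen with earlier results of these data known. Named are the 10 genes with every probe, other Polycomb genes that were called (1 is not reported here), up to 4 called examples of the other lists, and the 3 genes most like each member; single clones named for their Cbx7, Nanog or Sox2 values were picked after these were seen. Alternatives were normexp, quantile normalization, the authors' table, no filter, every probe, a fold minimum of 2, blocks for clone number and slide, and omission of each array. Figures were drawn with Python 3.11.15 and matplotlib 3.10.9.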

Additional observations from a re-analysis of the deposited data

Results flagged for a closer look

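Over the 10 genes and 6 clone groups, 60 sets of 5 clones were searched for a clone far from the other 4 by Dixon's criterion (gap over 0.710 of the range), and 7 were found, where chance gives about 1 in 20. Eed was highest in 3F-PαS-iPS #1, at 2.38, against 1.73 to 1.86 in the other 4 clones. Suz12 was highest in the same clone, at 2.79, against 2.02 to 2.09. Eed was lowest in 3F-TTF-iPS #1, at 1.64, against 1.91 to 1.97. Suz12 was highest in 3F-TTF-iPS #5, at 2.71, against 2.04 to 2.19. Phc1 was lowest in 4F-OP-iPS #2, at 1.76, against 3.31 to 3.92, and highest in 4F-TTF-iPS #3, at 3.72, against 2.47 to 2.80. Cbx7 was lowest in 3F-OP-iPS #1, at −0.83, against 0.81 to 1.44. All are log2 levels relative to the 75th percentile of the array.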

How the results depend on the processing

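No difference that was called for the 10 genes over all clones reversed. Between PαS-iPS and OP-iPS clones the count of 0 became 1 with normexp and outlying backgrounds replaced (an alternative chosen after seeing the data), 1 with a fixed slide block, 2 with a random slide block (also chosen after seeing the data), and 0 to 3 when single arrays were left out (3 without 4F-OP-iPS #4; 2 without 4F-OP-iPS #2, EB-3 or RF8; 1 without 4F-OP-iPS #5 or 3F-OP-iPS #4). Between PαS-iPS and TTF-iPS clones the count of 1 (Ring1) became 0 when every probe had to pass, with a fold minimum of 2, normexp, quantile normalization, a random slide block, or without the 3 clones that lacked Nanog and Sox2 signal (chosen after seeing the data), and 0 to 1 with single arrays left out (0 without 3F-PαS-iPS #4 or #5, 4F-TTF-iPS #1 or #4, or 3F-TTF-iPS #2 or #3). Between 3F- and 4F-clones the count of 2 became 0 with a fold minimum of 2 and 1 with a random slide block, and ran from 2 to 3 without single arrays. It ran from 6 to 10 for clones against ES cells (6 without EB-3), 9 to 10 for source cells against clones, and stayed 0 for OP-iPS against TTF-iPS clones. Against ES cells, Suz12 and Bmi1 did not pass on every probe, since their second probes failed. Suz12 also lay under the fold minimum of 2 and lost its call with quantile normalization (−0.68, limma adjusted p = 0.0538). Of the comparisons between sources and the pooled one of 3F- with 4F-clones, a fixed slide block could be fitted for PαS-iPS against OP-iPS only; for 3F- against 4F-clones of TTF it rested on 1 clone in each arm and was not used.

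Clone numbers did not pair the samples: of 75 pairs with the same number 16 correlated above 0.1, with a median of −0.0004. With the number as a replicate block, 1 gene instead of 0 was called between PαS-iPS and OP-iPS clones (Cbx7, limma adjusted p = 0.0345), and Cbx7 was not called between source cells and clones (−0.73, limma adjusted p = 0.305).

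Over all probes, normexp gave 8816 calls in place of 14464 for clones against ES cells, 436 in place of 1019 for PαS-iPS against OP-iPS, 45 in place of 359 for PαS-iPS against TTF-iPS, 4 in place of 8 for OP-iPS against TTF-iPS and 2694 in place of 5857 for 3F- against 4F-clones. A random slide block gave 9 for PαS-iPS against TTF-iPS, 0 for OP-iPS against TTF-iPS and 1032 for 3F- against 4F-clones, and a fixed one 521 for PαS-iPS against OP-iPS. Quantile normalization gave 4 and the clone number block 5 for OP-iPS against TTF-iPS. Without the 3 clones that lacked Nanog and Sox2 signal the counts were 20 for PαS-iPS against OP-iPS, 171 for PαS-iPS against TTF-iPS, 0 for OP-iPS against TTF-iPS and 3691 for 3F- against 4F-clones. Leaving out single arrays moved PαS-iPS against OP-iPS between 310 (without 4F-OP-iPS #3) and 3732 (without 4F-OP-iPS #2), PαS-iPS against TTF-iPS between 73 (without 4F-TTF-iPS #1) and 670 (without 4F-OP-iPS #2) and OP-iPS against TTF-iPS between 3 and 882 (without 4F-OP-iPS #2). The split of calls turned with scaling for PαS-iPS against TTF-iPS, from 165 higher and 194 lower to 184 and 104 with quantile normalization and 30 and 15 with normexp, and for PαS-iPS against OP-iPS from 503 and 516 to 266 and 170 with normexp, where the median of all probes moved from 0.03 to 0.15. The majority of calls also turned, by less than 10 percentage points, for 3F- against 4F-clones, from 3124 higher and 2733 lower to 2782 and 3371 with quantile normalization and 1229 and 1465 with normexp, and for source cells against clones, from 7519 and 9971 to 8832 and 8284 with quantile normalization. With no filter on dim probes the split was 11013 higher and 8365 lower in place of 6518 and 7946 for clones against ES cells, 8131 and 17454 for source cells against clones, and 129 and 288 for PαS-iPS against TTF-iPS. The cause of these changes was not tested.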
